A study of Homo sapiens with 121 samples.

Results

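The 40 cells with shorter telomeres, out of 121 single human embryonic stem cells (hESCs) of the line WA26, were divided by how strongly they expressed the PluriNet genes, a published network of genes shared by pluripotent cells. Shorter telomeres meant a T/R ratio below 1, the qPCR ratio of telomere repeats (T) to Alu repeats (R) in the genomic DNA of the same cell, and these were all 25 cells labelled Medium and all 15 labelled Short. Cells with a PluriNet score of 3 or more formed the high PluriNet class (26 cells, 20 Medium and 6 Short) and cells below 3 the low PluriNet class (14 cells, 5 Medium and 9 Short). The other 81 cells, labelled Long, were used only for a side-by-side reading of the same split.

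Pluripotent stem cells keep a transcription programme built around the factors OCT4 (the product of POU5F1), SOX2 and NANOG, and they keep their telomeres by telomerase, a reverse transcriptase with an RNA template. Telomeres are covered by the shelterin complex, which hides chromosome ends from the DNA damage response. In single-cell libraries made from polyadenylated RNA, a gene can read as 0 either because the cell holds no such transcript or because the transcript was lost before sequencing.

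All cells were untreated and of one line, each cell gave one library, and poly(A) RNA and genomic DNA were separated from the same lysed cell. The labels name no culture, passage, plate or day for any cell. Each class was therefore treated as 1 sample, and differences are given with the SD across cells and without a p-value. Expression is in TPM, a unit scaled for transcript length and to a fixed library total, which keeps no sequencing depth, so counting error and depth per cell are unknown. Lower RNA content, lower capture and lower expression cannot be told apart in these values.

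The split was made on the score, so the score itself is a description and not a finding. Recomputed from the TPM as the mean natural logarithm of TPM + 1 over 296 PluriNet genes, the score ran from 3.05 to 4.02 in the high class, with a median of 3.71. It ran from 1.45 to 3.01 in the low class, with a median of 2.46. The cells nearest the border were a Medium cell at 3.05 on the high side and a Medium cell at 3.01 on the low side. The recomputed score ordered the 40 cells into the same 2 classes, with 40 of 40 cells kept, although the highest low cell stood just above 3 on the recomputed scale. The T/R ratio was 0.662 ± 0.284 (SD, n = 26) in the high class and 0.333 ± 0.267 (SD, n = 14) in the low class, and the high cell had the higher ratio in 80.5% of the 364 high-low pairs of cells. Most low cells were Short, so the classes also differed in telomere group. Among Medium cells the ratio was 0.781 ± 0.202 (SD, n = 20) in the high and 0.637 ± 0.189 (SD, n = 5) in the low class, a difference within 1 SD. Among Short cells it was 0.265 ± 0.0715 (SD, n = 6) in the high and 0.164 ± 0.0917 (SD, n = 9) in the low class, again with overlap. Among the 4 high and 9 low cells with 4754 to 6407 detected genes, the range both classes shared, the ratio was 0.415 ± 0.257 in high and 0.426 ± 0.274 in low cells, and the high cell was higher in 52.8% of pairs. The highest T/R ratio of any member was 0.993, and the lowest among Long cells was 1.05.

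High PluriNet cells held far more detected genes than low PluriNet cells. A gene counted as detected above TPM 1. High cells had from 4754 to 10481 detected genes, with a median of 9084, and low cells had from 2030 to 6407, with a median of 5360. The means were 8437 ± 1760 (SD, n = 26) and 4778 ± 1426 (SD, n = 14), and the high cell had more in 92.6% of pairs. In all, 22 high cells had more detected genes than any low cell, and 5 low cells had fewer than any high cell. The gap held within both telomere groups, with 8678 ± 1663 (n = 20) against 5187 ± 627 (n = 5) genes in Medium cells and 7633 ± 1995 (n = 6) against 4551 ± 1717 (n = 9) in Short cells. Pearson's r between the score and detected genes was 0.82 across the 40 cells, given as a description. Within the 14 low cells it was 0.36, and within the 26 high cells 0.79. Both measures come from the same library, and a score that averages logarithms falls with every PluriNet gene at 0. Low cells had 163 ± 37.6 (SD, n = 14) of the 296 PluriNet genes detected and high cells 252 ± 29.1 (SD, n = 26).

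**Figure D1:**
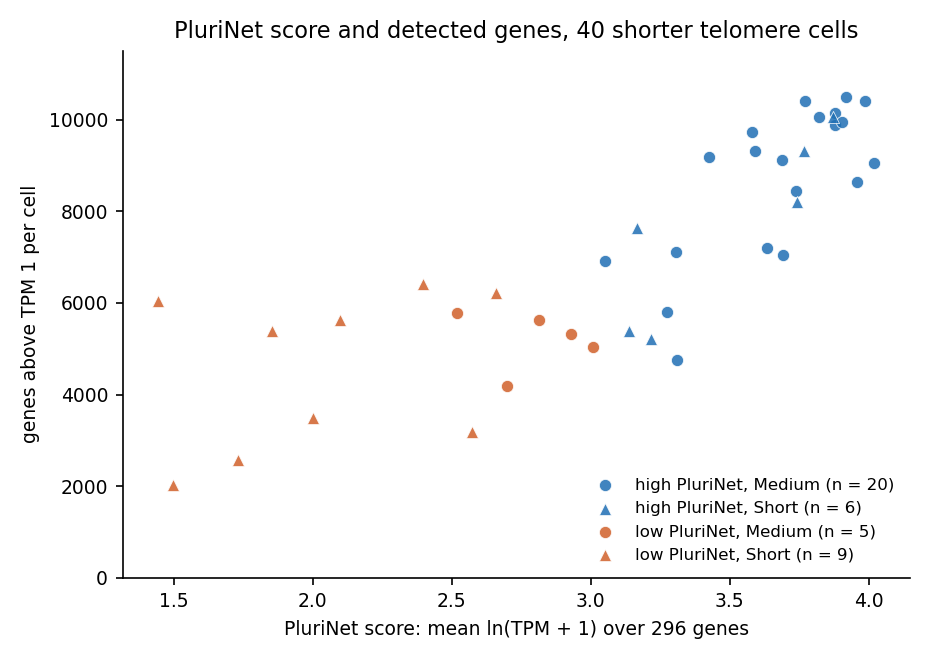
The x axis is the PluriNet score recomputed from TPM and the y axis the number of genes above TPM 1, with 1 point per cell, circles for Medium and triangles for Short. All 14 low PluriNet cells (orange) lie at or below 6407 genes, while 22 of the 26 high PluriNet cells (blue) lie above that.

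Low cells held fewer of the genes usually detected in Long cells with a score of 3 or more. Genes were called common when detected in 50% or more of the 71 Long cells with a score of 3 or more (8745 genes), and rare when detected in under 10% of them (11802 genes), so that neither set was chosen on the 40 cells. These Long cells were picked by the same score border as the classes, so the numbers are not independent of the split. Pearson's r between the score and common genes detected was 0.90 across the 40 cells. High cells had 6920 ± 1265 (SD, n = 26) common genes detected and low cells 3776 ± 984 (SD, n = 14), and the high cell had more in 95.9% of pairs. As a share of all detected genes, common genes were 82.5% ± 3.40 in high and 80.6% ± 8.78 in low cells, a gap smaller than the SD of the low class, and 86.2% ± 3.68 (n = 4) and 77.0% ± 8.28 (n = 9) in the range of detected genes that both classes shared. Rare genes numbered 231 ± 92.5 (SD, n = 26) in high cells and 240 ± 227 (SD, n = 14) in low cells, and the high cell had more in 57.8% of pairs. Without Short cell 6 the low class had 191 ± 142 (SD, n = 13), and among Medium cells the numbers were 237 ± 98.2 (n = 20) in the high and 162 ± 90.7 (n = 5) in the low class. Rare genes made up 2.66% ± 0.772 of the detected genes in high cells and 4.44% ± 3.56 in low cells. The highest number, 872 rare genes of 6046 detected, was in Short cell 6, which also had the lowest score. Long non-coding and uncharacterised genes were detected in similar numbers, 437 ± 122 (SD, n = 26) in high and 443 ± 233 (SD, n = 14) in low cells.

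**Figure D2:**
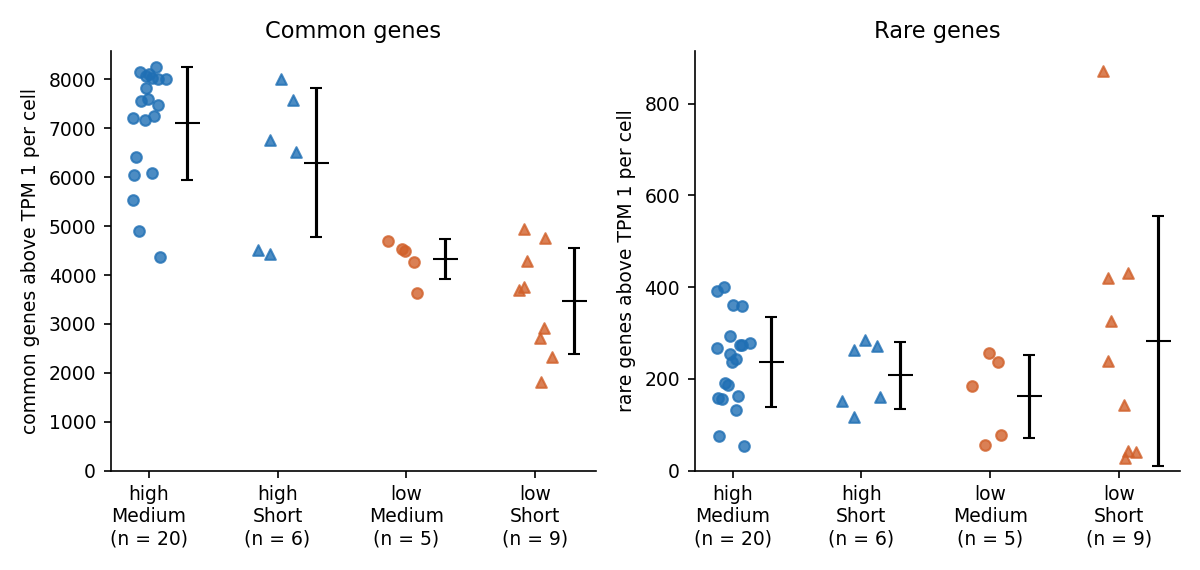
The y axes are the numbers of common genes (left) and rare genes (right) above TPM 1 per cell, for each PluriNet class and telomere group, with the mean and SD of the cells as black bars. Low PluriNet cells hold fewer common genes, 3776 against 6920 on average, while rare genes range up to 872 in the low class and 401 in the high class.

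Some low cells stood apart in the make-up of their RNA. Nuclear genes that resemble mitochondrial RNA (MTRNR2L genes and others, here called MT-like) took 23.3% of the TPM in Short cell 12 and over 10% in 2 low cells in all, against at most 7.49% in any high cell. Cytosolic ribosomal protein genes took 23.8% ± 6.16 of the TPM in high cells and 16.6% ± 5.01 in low cells, and the high cell had the larger share in 81.9% of pairs. This gap was absent among cells of the shared range of detected genes, at 16.9% ± 5.93 (n = 4) and 16.9% ± 6.28 (n = 9). There the high cell had the larger share in 47.2% of pairs. In Long cells the same split gave 24.0% ± 5.29 (n = 71) and 15.5% ± 4.71 (n = 10). The 50 most abundant genes of each cell took 27.6% ± 5.08 in high and 33.3% ± 7.13 in low cells. In Medium cells this share was nearly equal in the classes, 27.5% ± 3.93 (n = 20) and 27.5% ± 4.98 (n = 5), and in Short cells it was 28.3% ± 8.34 (n = 6) in the high and 36.5% ± 6.11 (n = 9) in the low class. Leaving out the 2 cells rich in MT-like RNA left the median difference over all genes, given below, at 1.99, and leaving out Short cell 6 moved it to 1.93.

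Expression was compared as the difference of mean log2(TPM + 1), high minus low, over the 6213 genes whose TPM averaged 10 or more across all 121 cells. A difference of 1 is about 2-fold in abundant genes and more than 2-fold in TPM for low genes, because the pseudocount of 1 shrinks their differences. Of these genes, 4744 (76.4%) were higher in high cells by 1 or more and 160 (2.58%) were higher in low cells by 1 or more, and the median difference was 1.99. The same counts were 3872 (62.3%) and 264 (4.25%) among Medium cells alone and 4402 (70.9%) and 284 (4.57%) among Short cells alone. When the difference also had to exceed the SD across cells in both classes, 2214 genes (35.6%) were higher in high cells and 20 (0.322%) in low cells. Most genes thus passed a difference of 1, and the lists below are read against that background. Only SLC39A6, a zinc transporter gene named after its values were seen, had no overlap between the classes: 1 gene (0.0161%) lay wholly higher in high cells and 0 genes (0%) wholly higher in low cells. It ran from 0.74 to 110 TPM in high cells and from 0 to 0.53 TPM in low cells.

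The counts changed when cells with similar numbers of detected genes were compared, or when that number was fitted. Among the cells with 4754 to 6407 detected genes, the range that both classes shared, there were 4 high and 9 low cells, and 2789 genes (44.9%) were higher in high and 934 (15%) higher in low cells by 1 or more, with a median of 0.77. With the number of detected genes as a covariate over all 40 cells, 3084 genes (49.6%) were higher in high and 579 (9.32%) in low cells, with a median of 0.98. Within the shared range the low cells had somewhat more detected genes than the high cells, 5715 ± 446 (n = 9) against 5288 ± 434 (n = 4). Their common genes numbered 4383 ± 426 in low and 4550 ± 242 in high cells, whereas their rare genes numbered 336 ± 232 and 120 ± 47.5. The classes also stood closer in recomputed score within this range, at 3.23 ± 0.0762 (n = 4) in high and 2.41 ± 0.525 (n = 9) in low cells. The gap of mean scores was 0.82 there and 1.33 over all 40 cells. The changed counts in the range therefore cannot be assigned to detected genes alone. How much of a gene's difference goes with the number of detected genes alone was not tested.

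The difference depended on how abundant a gene was in Long cells, which took no part in the split. In genes with a mean TPM of 10 to 30 in Long cells, the median difference was 1.83, in those of 30 to 100 it was 2.48, and in those of 100 to 300 it was 2.29. It was 1.25 in genes of 300 to 1000 and 0.80 in genes of 1000 or more. Detection ran alongside: genes of 10 to 30 TPM were detected in 32.1% of low and 76.4% of high cells on average, and genes of 1000 TPM or more in 99.2% and 99.7%. Where only cells with the gene detected were averaged, in the 4195 genes detected in at least 5 cells of each class, the median difference was 0.57 instead of 1.68 for the same genes over all cells, with 1439 higher in high and 370 in low cells by 1 or more.

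**Figure D3:**
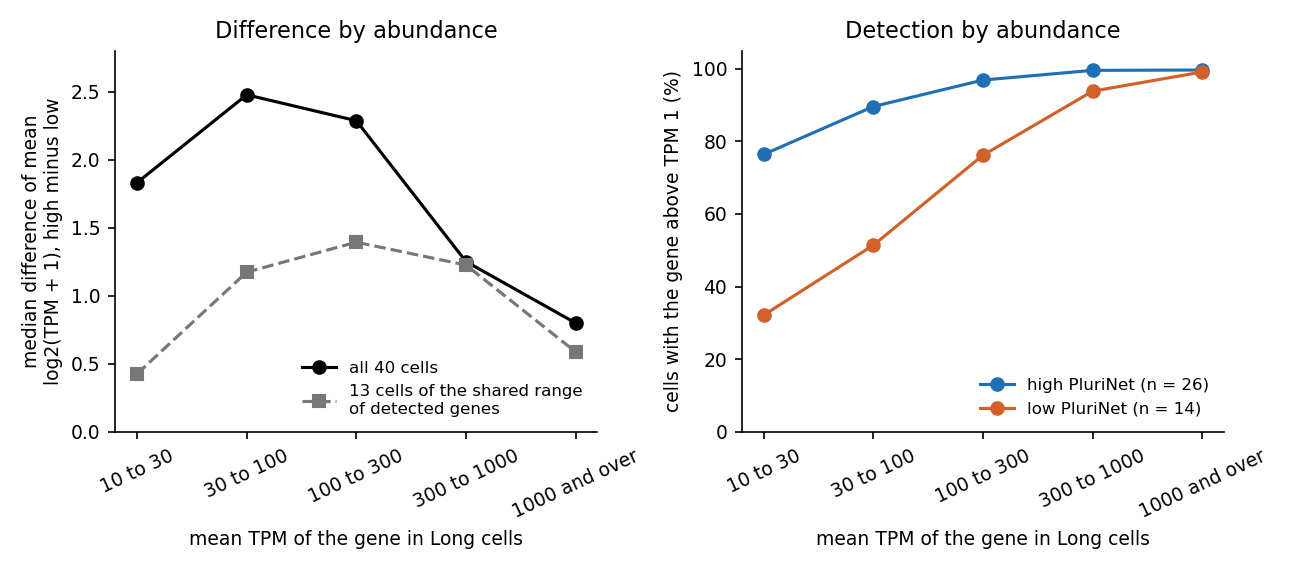
The left axis is the median over genes of the difference of mean log2(TPM + 1), high minus low, and the right axis the average percentage of cells with the gene above TPM 1, both against the gene's mean TPM in Long cells in 5 bins. The median difference falls from 2.48 in genes of 30 to 100 TPM to 0.80 in genes of 1000 TPM or more, where both classes detect nearly every gene.

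Genes of the hESC identity list are not independent of the rule, as 9 of the 37 measured members are in PluriNet. Of the 37, 34 (91.9%) were higher in high cells by 1 or more and none was higher in low cells by 1 or more. Among all genes 76.4% and 2.58% were, and the list's median was 2.43 against 1.99 for all genes. Within the shared range of detected genes the list's median was 1.21, with 21 higher and 0 lower by 1 or more, where 44.9% and 15% of all genes were. POU5F1, which encodes OCT4, ran from 75.8 to 1585 TPM in high cells, with a median of 977, and from 125 to 2135 TPM in low cells, with a median of 595. The full ranges overlapped almost wholly, but most low cells lay below the median of the high class. The difference of 0.68 was below the SD of the low class (1.13). LIN28A, an RNA-binding protein that blocks let-7 processing, differed by 0.59 and was detected in all 26 high and all 14 low cells. L1TD1, an RNA-binding protein of pluripotent cells, did not differ in these cells beyond the spread, at 8.25 ± 0.73 (SD, n = 26) on the log2 scale in high and 8.29 ± 0.73 (SD, n = 14) in low cells.

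The other core factors were lower in many low cells but not in all. SOX2 was detected in 25 high cells, with a median of 63.0 TPM, and in 10 low cells, with a median of 7.72 TPM, and differed by 2.49. NANOG ran from 3.37 to 422 TPM in high cells, with a median of 168, and from 0 to 422 TPM in low cells, with a median of 39.6. Its difference of 2.43 held in Short cells (3.18) and was -0.05 in Medium cells and -0.85 in the shared range of detected genes. PRDM14, a repressor of differentiation genes, differed by 1.76 over all cells and by -0.37 in the shared range. ZFP42 (REX1), a marker of the undifferentiated state, was detected in all 26 high cells and in 12 low cells and differed by 2.91, with 1.06 in the shared range. The de novo DNA methyltransferase DNMT3B differed by 1.77, with -0.29 in Medium and 3.28 in Short cells. GDF3, a TGF-beta family ligand, was detected in 23 high and 6 low cells and differed by 3.21.

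Among single members, MYC and the surface genes EPCAM and CD9 had the largest gaps of the list. MYC, a growth-promoting transcription factor, was detected in 20 high cells and in 1 low cell, with a median of 23.3 TPM in high and 0 TPM in low cells, and differed by 3.73. EPCAM, an epithelial adhesion protein of hESCs, ran from 60.2 to 598 TPM in high cells, with a median of 242, and from 0 to 342 TPM in low cells, with a median of 9.28. CD9, a tetraspanin on the hESC surface, had a median of 535 TPM in high and 36.8 TPM in low cells. The 9 surface genes had a median difference of 2.95, and of 2.50 in the shared range, where the 8 core factors had 0.52.

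Markers of other cell types varied between cells, and many were at 0. Of 10 neuroectoderm markers 1 was at 0 in every one of the 40 cells, of 12 mesendoderm and mesoderm markers 4, of 10 endoderm markers 5, of 12 trophoblast and amnion markers 4 and of 12 fibroblast markers 6. T (Brachyury), EOMES, SOX17, FOXA2, GATA6, CDX2 and COL3A1 were among those at 0 TPM in all 40. The summed TPM of the 12 mesendoderm and mesoderm markers had a median of 15.2 in high cells (0 to 68.9) and of 1.79 in low cells (0 to 108), and that of the 10 neuroectoderm markers 12.5 (0 to 138) and 0.62 (0 to 103). For the 10 endoderm markers the medians were 0.19 TPM (0 to 34.0) in high and 0.48 TPM (0 to 10.4) in low cells, and for the 12 trophoblast and amnion markers 6.09 TPM (0 to 207) and 2.17 TPM (0 to 42.0). The 12 fibroblast markers summed to a median of 61.1 TPM (0.68 to 593) in high and 0.90 TPM (0 to 974) in low cells, with TAGLN, an actin-binding protein gene, reaching 579 TPM in a high and 972 TPM in a low cell. Over all 40 cells the median sum was higher in high cells for 4 of the 5 sets. For the endoderm set both medians were below TPM 1, and the high cell had the larger sum in 50.3% of pairs. The mean endoderm sum was 4.85 TPM in high and 2.73 TPM in low cells. Among the 4 high and 9 low cells of the shared range of detected genes, the mesendoderm and mesoderm medians turned round, to 0.505 and 3.45 TPM. There the high cell had the larger sum in 31.9% of pairs for that set and in 20.8% for the endoderm set. For the neuroectoderm, trophoblast and amnion, and fibroblast sets it was 56.9%, 55.6% and 66.7% of pairs. SOX7 was the only endoderm marker detected in low cells, in 6 of them, and it was detected in 3 high cells. Single cells in both classes reached over 100 TPM in a set.

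**Figure D4:**
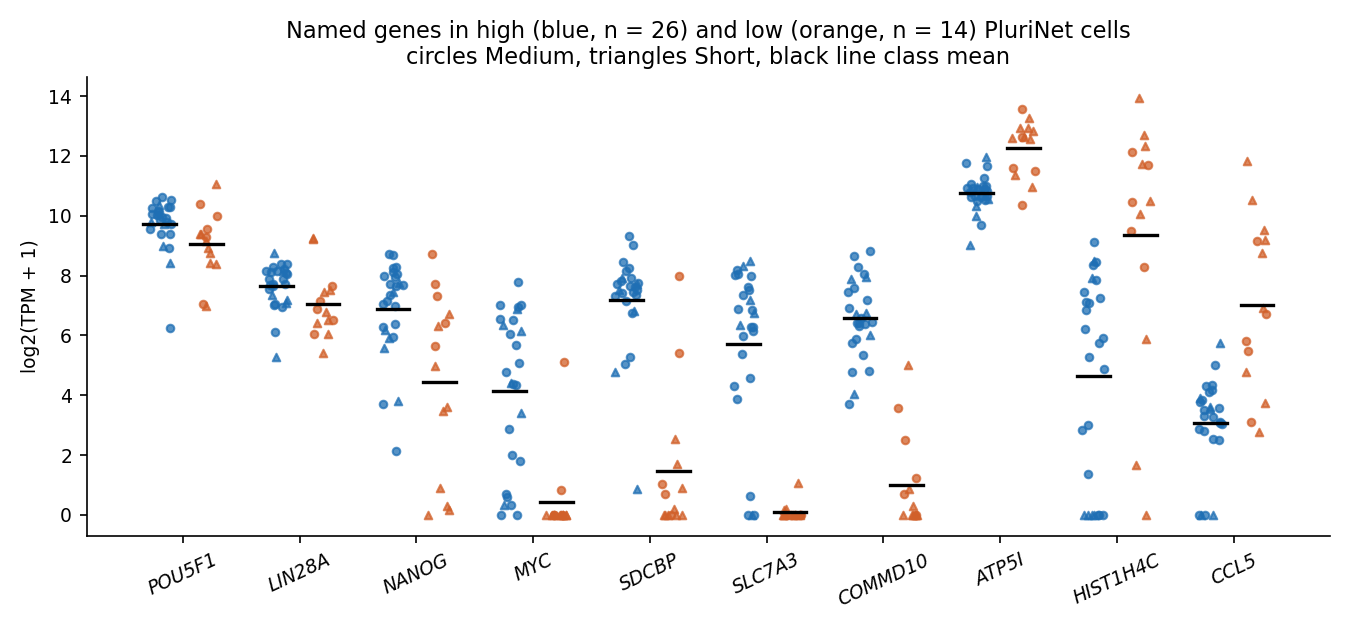
The y axis is log2(TPM + 1), with 1 point per cell for 10 named genes, high PluriNet cells in blue and low PluriNet cells in orange, circles for Medium, triangles for Short and black lines for class means. POU5F1 and LIN28A overlap between the classes, SLC7A3 is at or near 0 in the low cells, and ATP5I, HIST1H4C and CCL5 have higher means in low cells.

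Of the 10 genes with the largest gaps, 8 were detected in 5 or fewer of the 14 low cells, and MRPS6 and PSMD10 in 9 and 11. SDCBP (syntenin, an adaptor protein of vesicle trafficking; GRCh37 chr8:59465483-59495418, plus strand) ran from 0.81 to 632 TPM in high cells, with a median of 190, and from 0 to 253 TPM in low cells, with a median of 0.38. It differed by 5.71, the largest of all genes measured, and by 4.13 in the shared range. SLC7A3 (a cationic amino acid transporter; GRCh37 chrX:70145429-70150975, minus strand) was detected in 22 high cells, with a median of 93.3 TPM, and in 1 low cell, where it reached 1.09 TPM. All 22 of those high cells were above every low cell. HMGN4, a nucleosome-binding protein, had a maximum of 1.08 TPM in low cells and a median of 99.2 TPM in high cells. COMMD10 ran from 12.2 to 450 TPM in high and from 0 to 31.3 TPM in low cells, and CPSF3, the endonuclease that cuts pre-mRNA ends for polyadenylation, from 6.47 to 217 and from 0 to 18.2 TPM. Both kept their gap in the shared range, at 6.07 and 6.17. METTL23, CNIH1, PDLIM1, CDCA7, MRPS6 and PSMD10 completed the 10 largest, with differences between 5.09 and 5.45. With the number of detected genes as a covariate, the 5 highest were COMMD10 (5.83), XRCC4 (5.50), a DNA ligase IV partner in end joining, CPSF3 (5.27), IFT74 (5.17), of the ciliary transport machinery, and CNIH1 (5.17). XRCC4 was detected in 23 high and 2 low cells.

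The same split in Long cells (71 high and 10 low cells, no cell in common with the 40) gave 4282 genes (68.9%) higher in high cells and 80 (1.29%) higher in low cells by 1 or more, with a median of 1.61. Across the 6213 genes the 2 sets of differences had a Pearson r of 0.53. Genes share libraries within each set and are not independent. Of the 4744 genes higher in high cells here, 78.5% were also higher by 1 or more in the high Long cells, and 18.8% of the 160 higher in low cells were also higher in the low Long cells, which was 37.5% of the 80 found there. SDCBP differed by 3.59 in Long cells and SLC7A3 by 3.47, against 5.71 and 5.63 in the shorter telomere cells. COMMD10 differed by 1.72 in Long cells, and PSMD10 by 1.49. Whether these gaps differ between telomere groups was not tested.

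Genes of telomere maintenance stood near the background. Over all genes 76.4% were higher in high cells by 1 or more and 2.58% in low cells, with a median of 1.99. Of the 4 shelterin genes measured, all 4 were higher in high cells by 1 or more, with a median of 1.57. TERF1, which binds the telomeric repeat directly, ran from 122 to 1298 TPM in high cells, with a median of 372, and from 15.9 to 1431 TPM in low cells, with a median of 203. Its difference of 1.14 was 0.13 in Medium cells, 1.41 in Short cells and -0.78 in Long cells. TINF2, which joins the shelterin subunits, was detected in 18 high and 3 low cells. ACD (TPP1, the link to telomerase) and TERF2IP (RAP1) were each detected in 4 low cells, and in 18 and 20 high cells. Of 11 telomerase and CST genes, 8 (72.7%) were higher in high cells by 1 or more, with a median of 2.33. Those that did not follow were the H/ACA proteins of the telomerase RNA: NOP10 (-0.40), NHP2 (-0.06) and DKC1 (0.04). NOP10 and NHP2 were detected in all 14 low cells, and DKC1 in 13 of 14. RUVBL2, an AAA+ ATPase of telomerase assembly, ran from 47.9 to 801 TPM in high and from 0 to 73.9 TPM in low cells, with a difference of 4.91 and of 5.27 in the shared range. NAF1, an assembly factor of H/ACA particles, was detected in 21 high and 0 low cells. Of the 30 measured genes of the published telomere maintenance list, 8 of them in PluriNet, 25 (83.3%) were higher in high cells by 1 or more. None was lower by 1 or more, and the median was 1.79. Of 9 genes of telomeric chromatin, such as heterochromatin proteins and histone chaperones, 6 were higher by 1 or more, with a median of 1.75.

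DNA repair and cell cycle genes were compared with the 76.4% of all genes that were higher in high cells by 1 or more and the median of 1.99. These lists are not independent of the rule. PluriNet held 3 of the 5 mismatch repair genes measured and 9 of the 16 double-strand break repair genes. It also held 10 of the 33 mitotic and 20 of the 40 replication genes. All 5 mismatch repair genes measured were higher by 1 or more, with a median of 2.85. MSH6, a subunit of a mismatch recognition complex, ran from 0.29 to 131 TPM in high and from 0 to 46.0 TPM in low cells. Of 16 double-strand break repair genes, 15 were higher by 1 or more, among them RPA2 (4.29), a subunit of the single-strand binding protein, and the exception was XRCC5 (0.99), the Ku80 subunit. Of 33 mitotic genes 31 (93.9%) were higher, with a median of 2.46. CDK1, the kinase that drives mitotic entry, was detected in 25 high cells, with a median of 210 TPM, and in 9 low cells, with a median of 1.66 TPM. CCNB2, its cyclin, had a median of 197 TPM in high and 1.78 TPM in low cells, while the checkpoint protein BUB3 differed by 0.30 and the condensin subunit SMC2 by 0.48. Of 40 replication genes 32 (80.0%) were higher, with a median of 2.07, close to all genes. ORC4 and CDT1, which license replication origins, differed by -0.34 and -0.33, and GINS2, of the replicative helicase, by -0.06. ORC4 and CDT1 were uneven among low cells, from 0.3 to 1738 TPM and from 0 to 219 TPM. Both had their highest value in Short cell 6.

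Housekeeping lists lay on both sides of the median of 1.99. Among all genes 76.4% were higher in high cells by 1 or more and 2.58% in low cells. Of 82 cytosolic ribosomal protein genes 41 were higher in high cells by 1 or more, with a median of 1.03, whereas genes of 1000 TPM or more in Long cells had 0.80. RPS15 and RPL35 were among the lowest, at -0.76 and -0.74, and RPS4X and RPL39L the highest, at 2.76 and 4.05. Of 77 mitochondrial ribosomal protein genes 51 were higher and 2 were lower, MRPL36 (-1.47) and MRPL27 (-1.21). The proteasome, which degrades ubiquitin-tagged proteins, had 32 of 41 genes higher and a median of 2.13, with PSMB6 at -0.61 and PSMD10 at 5.09. The 8 CCT chaperonin genes, which fold actin and tubulin, ran from 0.86 (CCT3) to 4.25 (CCT8), with a median of 2.35, where genes of their median abundance (300 to 1000 TPM in Long cells) had 1.25. Of 19 glycolysis genes 13 were higher, with a median of 1.96. ENO2, an enolase isoform, was detected in 23 high and 0 low cells, whereas the abundant isoform ENO1 differed by 0.52. SLC2A3, a glucose transporter, and SLC16A1, a lactate transporter, differed by 3.90 and 3.99. The widely used reference genes GAPDH and ACTB differed by 0.88 and 1.28, and PTMA, a small nuclear protein, by 0.37.

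Oxidative phosphorylation genes, which make and use the mitochondrial proton gradient, had the lowest median over the 40 cells among the lists of protein complexes and pathways. With the number of detected genes as a covariate (0.76), the cytosolic ribosomal protein list (0.58) and the p53 and apoptosis list (0.42) were lower. Of its 77 genes 27 (35.1%) were higher in high cells by 1 or more and 6 (7.79%) higher in low cells by 1 or more, with a median of 0.57, against 1.25 for genes of 300 to 1000 TPM, the bin of this list's median gene. The median was -0.16 in Medium cells, 1.07 in Short cells and -0.20 over all 40 cells after rescaling by the median ratio, which moved the median of all genes from 1.99 to 1.68. Together these genes held 5.62% ± 0.982 (SD, n = 26) of the TPM in high cells and 8.80% ± 3.85 (SD, n = 14) in low cells, and the high cell had the larger share in 24.2% of pairs. The share ran from 4.60% to 9.45% in high and from 3.40% to 14.6% in low cells. In the shared range it was 5.59% ± 0.568 (n = 4) and 7.54% ± 3.81 (n = 9), with 36.1% of pairs. The same split of Long cells gave 5.48% ± 0.920 (n = 71) and 7.48% ± 1.86 (n = 10). ATP5I, a small ATP synthase subunit, ran from 524 to 3995 TPM in high cells, with a median of 1797, and from 1319 to 12240 TPM in low cells, with a median of 6286. The difference was -1.51, with -1.09 in Medium and -1.99 in Short cells, and 9 low cells lay above every high cell. NDUFA13 and NDUFC2, of complex I, had differences of -1.84 and -1.70. Others of the same complexes were higher in high cells, among them NDUFA9 (3.64), UQCRC2 (3.67) and ATP5D (3.82). By complex, the median was 0.39 for the 38 complex I genes, 0.46 for the 10 complex IV genes and 2.59 for the 4 complex II genes.

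Stress and apoptosis genes had shares near those of all genes (76.4% higher in high and 2.58% higher in low cells). Of 25 stress response genes 17 (68.0%) were higher in high cells by 1 or more and none in low cells, with a median of 1.61. IER3, an immediate early gene, was detected in 21 high and 2 low cells, ASNS, induced by amino acid shortage, had a median of 177 TPM in high and 2.76 TPM in low cells, and FTH1, the ferritin heavy chain, differed by -0.10. Of 14 p53 targets and apoptosis genes 10 (71.4%) were higher in high cells. XIAP, a caspase inhibitor, differed by -0.39 and MDM2, the p53 ubiquitin ligase, by 0.36, while MCL1, an anti-apoptotic protein, differed by 3.45. XIAP was uneven among low cells, from 0.22 to 132 TPM, with the highest value in Short cell 6. Within the shared range of detected genes, 4 of these 14 genes were higher and 5 lower by 1 or more, where 44.9% and 15% of all genes were.

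**Figure D5:**
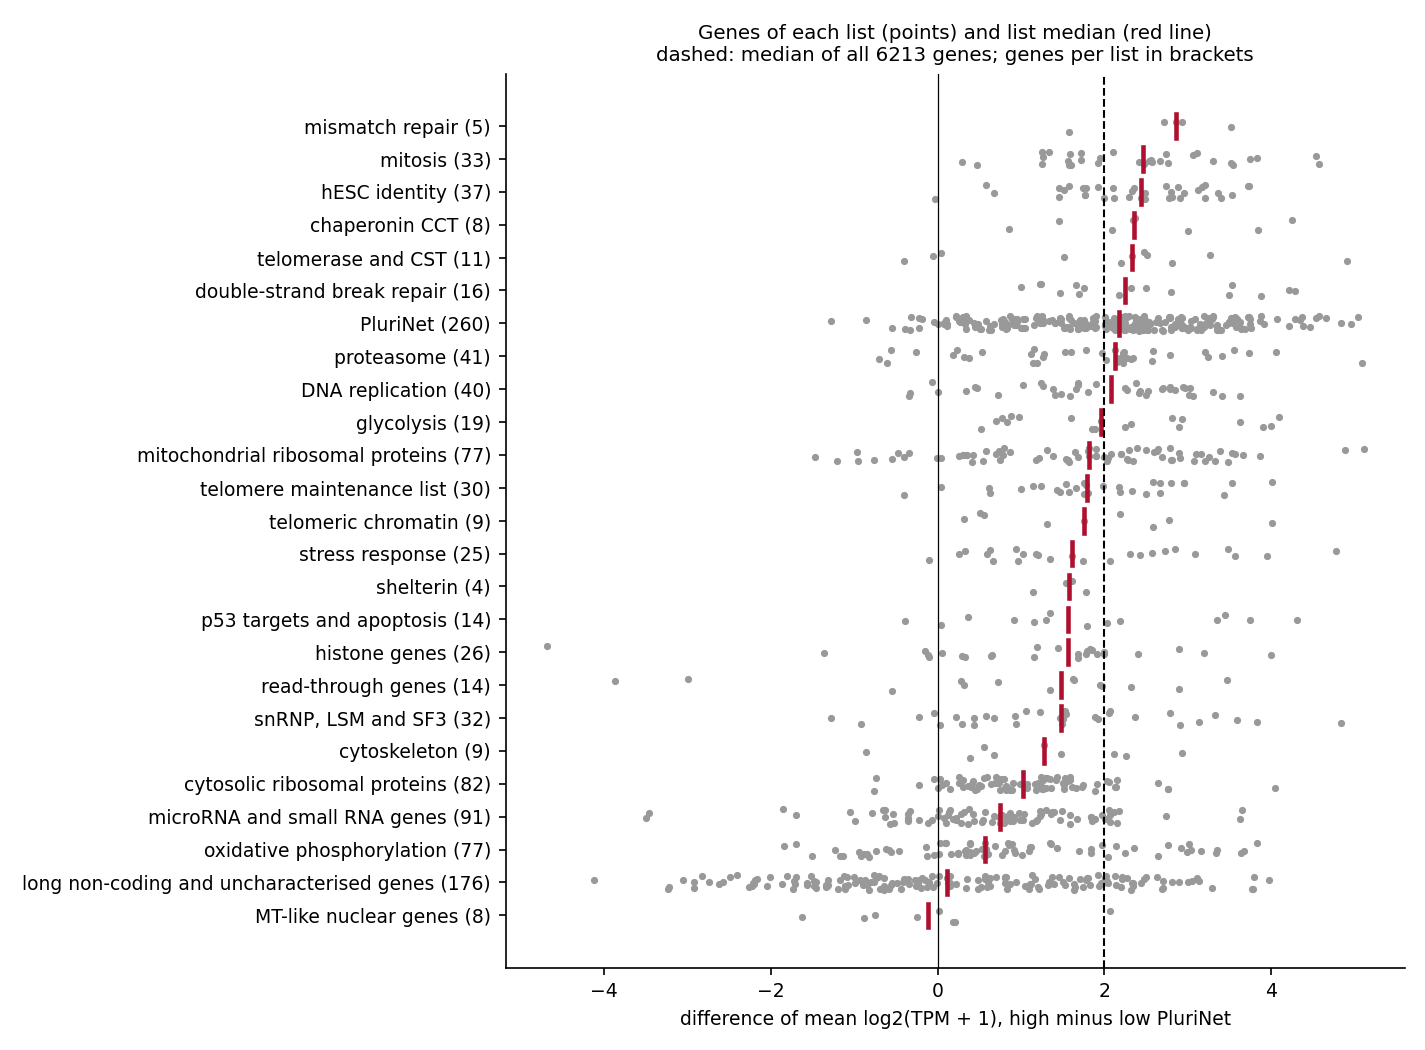
The x axis is the difference of mean log2(TPM + 1), high minus low PluriNet, with 1 grey point per gene of a list, a red line for the list's median and a dashed line at 1.99, the median of all 6213 genes. Oxidative phosphorylation, microRNA and small RNA, long non-coding and MT-like genes have medians under 0.80, and mismatch repair, mitosis and hESC identity genes have medians above 2.40.

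Few genes were higher in low cells, and their leading members were a histone, a chemokine and non-coding RNAs. HIST1H4C, a replication-dependent histone H4 gene (H4C3 in GENCODE; GRCh37 chr6:26104161-26104565, plus strand), ran from 0 to 554 TPM in high cells, with a median of 56.1, and from 0 to 15757 TPM in low cells, with a median of 1408. In 10 of the 14 low cells it lay above every high cell. It differed by -4.69, the most of all genes, with -5.17 in Medium, -6.02 in Short and -2.47 in Long cells. Replication-dependent histone transcripts normally end in a stem-loop and not in a poly(A) tail. The histone genes did not share the direction of HIST1H4C as a group. Of 26 measured, HIST1H4C included, 16 (61.5%) were higher in high cells by 1 or more and 2 (7.69%) in low cells. Among all genes 76.4% and 2.58% were. HIST1H2BK differed by 3.99 and the variant H3 gene H3F3B by -0.15.

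CCL5, a chemokine of leukocytes (GRCh37 chr17:34198495-34207797, minus strand), was above TPM 1 in all 14 low cells, from 5.82 to 3604 TPM with a median of 112, and in 22 high cells, from 0 to 53.2 TPM with a median of 9.62. In 9 low cells it lay above every high cell, and 6 low cells did so for both CCL5 and HIST1H4C. It differed by -3.95, with -2.90 in Medium, -4.76 in Short, -5.06 in the shared range and -2.45 in Long cells. SNAR-B1 and SNAR-B2, small RNA polymerase III transcripts whose listed values are identical and which cannot be told apart, had a median of 3.90 TPM in high and 420 TPM in low cells. SERF2-C15ORF63, a read-through model that shares sequence with SERF2 and is uncertain for that reason, had a median of 0 TPM in high and 114 TPM in low cells.

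Non-coding genes made up the rest of the most extreme values. LINC00824, PCAT7 and LOC101928303 averaged 4.92, 2.69 and 8.83 TPM in Long cells and passed the minimum of 10 only through the cells where they were high, so their place among the lowest genes follows in part from the filter. Over the 6190 genes that averaged 10 TPM or more in Long cells, 88 were higher in low cells by 1 or more. LINC00824 had a median of 0 TPM in high and 14.9 TPM in low cells, with a highest value of 2591 TPM, and differed by -4.12. MIR5096 ran up to 213 TPM in high and up to 23424 TPM in low cells, with -0.63 in Medium and -5.74 in Short cells. MIR1273A ran up to 61.5 and 6601 TPM, PCAT7 up to 26.2 and 642 TPM and LOC101928303 up to 24.6 and 1046 TPM. For each of these genes and for CCL5, Short cells 6, 7, 8 and 12 were above every high cell. Each had its highest value in Short cell 6, whereas MIR5096 was 0 TPM in Short cells 9 and 15 and Medium cells 19 and 23. They thus peaked in the same few cells, and their differences are not separate readings of the class. With the number of detected genes as a covariate, MIR1273A (-6.07), MIR5096 (-5.88), LINC00824 (-5.69), CCL5 (-5.64) and LOC101928303 (-4.87) were the lowest of all genes. In Long cells MIR1273A differed by -0.07, MIR5096 by -0.59 and LOC101928303 by 0.26. Of the 176 long non-coding and uncharacterised genes measured, 64 (36.4%) were higher in high cells and 47 (26.7%) higher in low cells by 1 or more, with a median of 0.12, which was -0.37 after rescaling by the median ratio. Over all genes the shares were 76.4% and 2.58%. The list includes genes that passed the minimum only through cells where they were high, such as LINC00824, and no recount without them is given. In the shared range 29 were higher in high and 86 in low cells, with a median of -0.95, where 44.9% and 15% of all genes were. Of the 91 microRNA and small RNA genes 33 were higher in high and 5 in low cells, with a median of 0.75. The 8 MT-like genes had a median of -0.11, with MTRNR2L6 at -1.62 and MIR4461 at 2.06. The 14 read-through genes had 8 higher and 2 lower.

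Among PluriNet genes themselves, whose difference follows from the rule, 202 of 260 measured were higher in high cells by 1 or more and 1 was higher in low cells. The exception was LSM7 (-1.28), an RNA-processing protein. The RNA-processing list around it had 19 of 32 genes (59.4%) higher, below the 76.4% of all genes, with SNRPD2 at -0.92 and LSM2 at 4.83. Of those 32 genes, 13 were in PluriNet. PFN1 (profilin), another PluriNet gene, had -0.86 and belonged to the 9 cytoskeleton genes, of which 5 (55.6%) were higher, ACTG1 by 2.11. HPRT1 (5.04) and COPS3 (4.96) were the highest PluriNet genes. Outside PluriNet, 4542 of 5953 genes were higher in high cells by 1 or more and 159 in low cells, with a median of 1.98, which is close to the 2.18 of the PluriNet genes.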

How the data were processed

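Per the labels and the study's methods, poly(A) RNA of single WA26 cells was amplified by a Smart-seq2 based protocol, sequenced, aligned with TopHat to hg19 and counted per RefGene gene with HTSeq. The submitters' processing notes also name TopHat2 and RSEM, so which tool gave the TPM is not settled. The deposited TPM table, made by the authors, held 121 cells with sums of 979828 to 997050, and 25610 genes of it were read. Genes after these in the alphabet were not analysed here.

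T/R ratios, scores and the PluriNet list were taken from the study's supplement. Values were analysed as log2(TPM + 1) with Python 3.11.15, numpy, pandas and scipy, over genes whose TPM averaged 10 or more across all cells. No test was run, since the labels name no culture: differences of class means, SDs across cells, the percentage of high-low pairs (equal values counted as 0.5) and counts past a difference of 1 are given. A gene's class coefficient was also fitted by least squares with the number of detected genes, a step tested on simulated data. Named genes were the 10 highest and 10 lowest by difference, the 5 highest and 5 lowest with the covariate, the 3 highest and 3 lowest of each list and a set of 13 markers; some genes this rule names are not reported here. The members and lists were chosen with earlier results of these data known. Gene positions come from GENCODE on GRCh37. TPM keeps no counts, so depth and counting error are unknown.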

Additional observations from a re-analysis of the deposited data

Results flagged for a closer look

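In 15 checks of single cells against their class and telomere group, 2 values stood apart by Dixon's criterion, and chance alone flags about 1 in 20 groups. Cytosolic ribosomal protein genes took 26.1% of the TPM in Medium cell 20, against 13.4% to 15.8% in the other low PluriNet Medium cells. Rare genes made up 14.4% of the detected genes in Short cell 6, against 1.32% to 7.79% in the other low PluriNet Short cells. The cause of either value was not tested.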

How the results depend on the processing

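The number of genes higher in high PluriNet cells by 1 or more moved from 4744 to 2444 with a pseudocount of 10, to 2789 in the shared range of detected genes and to 3084 with detected genes as a covariate. The number higher in low cells moved from 160 to 360 after rescaling by the median ratio, to 264 in Medium and 284 in Short cells alone, to 934 in the shared range, to 579 with the covariate, to 830 over the 21080 genes above 0 in any cell and to 88 over genes averaging 10 TPM or more in Long cells. The median difference moved from 1.99 to 3.06 with a pseudocount of 0.1, 0.82 with 10, 2.95 with medians, 1.48 in Medium cells, 0.77 in the shared range and 0.98 with the covariate. NANOG reversed in Medium cells (-0.051), in the shared range (-0.85) and with the covariate (-0.52), PRDM14 in the shared range (-0.37), DNMT3B in Medium cells (-0.29) and the histone list's median in the shared range (-0.033). List medians under 1 also turned sign: oxidative phosphorylation in Medium cells (-0.16) and after rescaling (-0.20), small RNA genes with the covariate (-0.049), long non-coding genes in 5 settings (-0.95 in the shared range) and MT-like genes in 4. The causes were not tested. The T/R difference of 0.328 became -0.011 in the shared range, and kept its direction with medians and within Medium and Short cells. For the 101 named genes, 1275 of 1313 values moved by less than 1 SD, whereas for the 25 lists 108 of 325 medians moved by 0.5 or more and 1 reversed, and 16 of 25 moved with the covariate. Comparing T/R in the shared range and leaving out the cells rich in MT-like RNA or the lowest cell were chosen after seeing the data. No paired analysis was possible because the shared numbers in the titles only count cells and no test was run.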
